A study of Drosophila melanogaster with 18 samples.

Results

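The 101 genes described here are genes of Drosophila melanogaster that are still known by an annotation number (CG and digits) and that were abundant in testis RNA. They were selected on measured values, as every CG-numbered gene off chromosomes Y and 4 with a mean of at least 500 CPM (counts of a gene per 1000000 counts of its library) in the 2 testis libraries and with a testis level at least 32 times that of male heads, female heads and ovaries, after 0.5 CPM was added to each mean. The rule kept 101 of the 6048 CG-numbered genes off those chromosomes and of the 17825 genes of the count table. The polyadenylated RNA of an isogenic w1118 strain was sequenced in 9 conditions of 2 libraries each. The adult parts, from flies 24 h old, were testes, male bodies, male heads, ovaries, female bodies and female heads, where a body is the abdomen with the thorax. The stages were embryos at 18 h, larvae of the third instar at wandering, and whole adults labelled 24 h, with no sex given for these 3 groups. The sources disagree on the age of the adults, since a passage of the study gives a shorter time than the labels. No group carried a mutation or a treatment that another group lacked. The sources used here do not say whether the gonads were taken out of the bodies, how many flies went into a library or whether the 2 libraries of a condition came from separate cultures, so that the p-values measure only the spread between these libraries.

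The fly testis turns germline stem cells into spermatocytes and these into elongated sperm. Spermatocytes transcribe a large set of genes under the control of the testis meiotic arrest complexes, tMAC and the testis TAFs, and many of their messages are stored and used after meiosis in the building of the sperm tail and the compact sperm nucleus. Larval testes already hold spermatocytes, while the accessory glands, which secrete seminal fluid proteins, form at metamorphosis. Many genes of the male germline have never been given a name, because no mutant or protein has been described for them.

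In the testis libraries the 101 genes took 15.7% (replicate 1) and 14.1% (replicate 2) of all counts. The share was 6.60% and 4.53% in male bodies, 0.0296% and 0.0127% in male heads, 0.141% and 0.0311% in ovaries, 0.0781% and 0.0178% in female bodies, and 0.0325% and 0.0124% in female heads. It was 0.00776% and 0.00734% in embryos, 0.394% and 0.261% in larvae, and 1.34% and 1.70% in whole adults. The testis, head and ovary values chose the genes and are therefore a description. The values of male and female bodies and of the 3 stages entered no part of the rule. Because reads were taken from whole tissues, fewer cells of a type and less RNA per cell cannot be told apart. Library totals lay between 37198249 and 87676051 counts, and 3 counts, taken as the floor, stood between 0.0342 and 0.0806 CPM. Such floors cover counting error only.

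**Figure D1:**
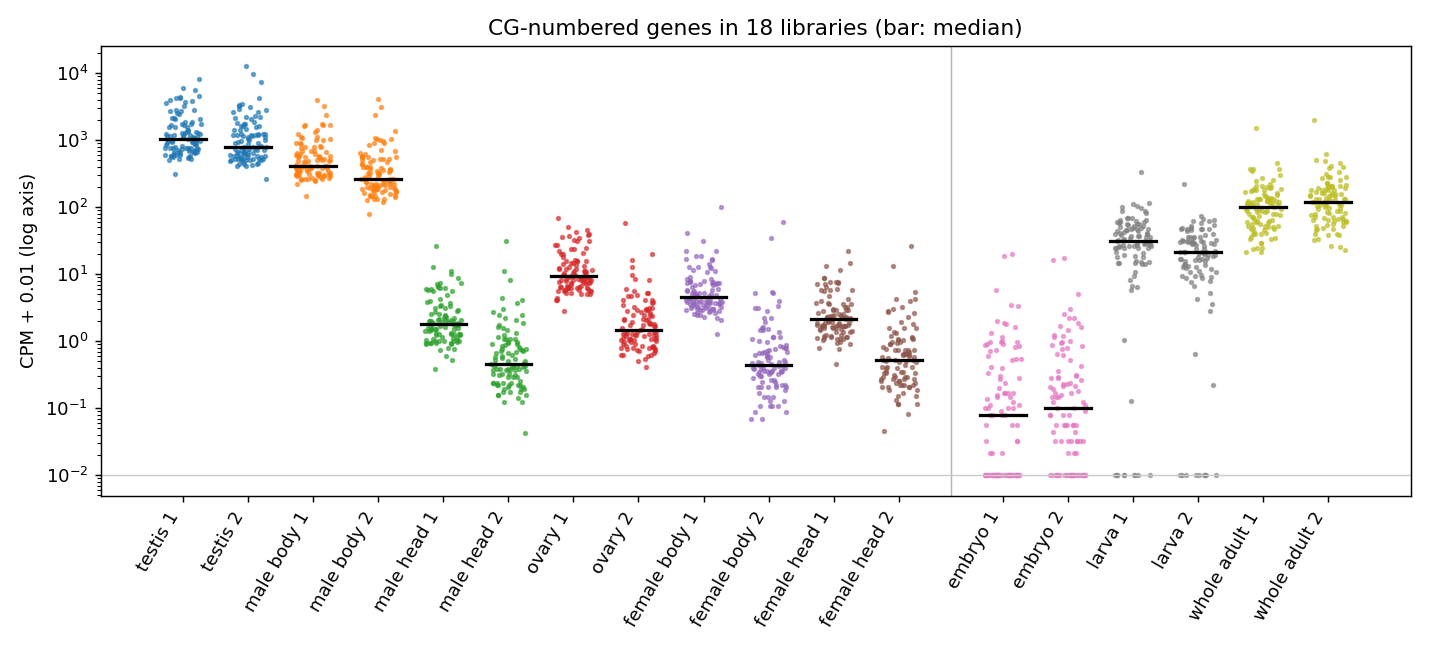
Level of each of the 101 genes in each of the 18 libraries, as CPM plus 0.01 on a log axis. Each point is a gene, the black bar is the median over the genes, and points on the grey line at the bottom had 0 counts. Medians were 1053 and 805 CPM in testes, 417 and 266 CPM in male bodies, and stayed under 10 CPM in each head, ovary, female body and embryo library.

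The median level over the 101 genes was 913 CPM in testes, with a range from 505 CPM (CG6569) to 9273 CPM (CG17097). It was 352 CPM in male bodies, 1.13 CPM in male heads, 5.48 CPM in ovaries, 2.60 CPM in female bodies and 1.32 CPM in female heads, and along development it was 0.0799 CPM in embryos, 26.3 CPM in larvae and 111 CPM in whole adults. The members just inside the limit of 500 CPM were CG6569 with 505 CPM, CG33125 with 514 CPM, CG31327 with 525 CPM and CG32106 with 531 CPM, and just outside it stood CG16739 with 497 CPM, CG2291 with 496 CPM, CG17237 with 494 CPM and CG8851 with 493 CPM. Just inside the limit of 32 times were CG16972 with 43.6 times, CG42675 with 48.8 times, CG8526 with 83.5 times and CG18131 with 93.2 times. CG3085 with 30.2 times, CG14995 with 29.8 times, CG5162 with 26.8 times and CG8042 with 14.2 times stood just outside it. The fold limit removed few genes, because 101 of the 118 CG-numbered genes at 500 CPM or more in testes met it. Another 81 genes that carry a name, or that lie on chromosomes Y and 4, met the same 2 limits.

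The label was checked against marker genes of the testis and of the tissues around it. Of the 14 genes listed for spermatocyte transcription (tMAC, the testis TAFs and kmg), 12 had a count of their own. Their summed level was 404 and 424 CPM in testes, 221 and 166 CPM in male bodies and between 24.9 and 102 CPM in heads, ovaries and female bodies. The 31 measured genes of sperm structure and late spermatids, such as don juan (dj) and the sperm leucyl aminopeptidase S-Lap1, summed to 42019 and 30192 CPM in testes and to 402 and 85.7 CPM in ovaries. The testis libraries also held many reads of the accessory gland, the ejaculatory duct and the ejaculatory bulb. The 17 measured genes of that list summed to 22071 and 16545 CPM in testes, to 10058 and 7027 CPM in male bodies and to 199 and 32.3 CPM in ovaries, and 16 of the 17 were at 100 CPM or more in testes. A high level in these libraries therefore does not separate the testis from the rest of the dissected male tract. Muscle genes were far lower in testes, with 668 and 916 CPM over 5 genes against 23905 and 24822 CPM in male bodies. The early germline and testis somatic lists were not highest in testes. The 3 measured early germline genes summed to 82.5 and 126 CPM in testes, against 309 and 285 CPM in ovaries. Among them only bgcn was higher in testes. The 5 testis somatic genes summed to 169.99 and 209 CPM in testes, against 381 and 419 CPM in ovaries. Their sum in male heads was 323 and 332 CPM. Among them Fas3 and upd1 were higher in testes than in ovaries.

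All 101 genes are annotated as protein coding, and their proteins had a median length of 390 amino acids (32 to 1737). They lay mostly on the autosomes: 5 on X (4.95%), 37 on 2L (36.6%), 13 on 2R (12.9%), 15 on 3L (14.9%) and 31 on 3R (30.7%), where X held 16.6% and 2L 18.8% of all CG-numbered genes off Y and 4. Of the 4000 CG-numbered genes with at least 10 counts in both testis libraries, 16.2% lay on X and 20.1% on 2L. Of the 81 other genes that met the limits, 8.64% lay on X, 17.3% on 2L and 40.7% on 3R. These shares were not tested. The median span was 1790 bases, 19 members (18.8%) had a single exon, and 83 (82.2%) overlapped no other gene, against 52.5% of all CG-numbered genes, 63.5% of those with at least 10 counts in both testis libraries and 86.4% of the 81 other genes that met the limits. The first of these differences rests in part on the count table, in which each of the 1218 CG-numbered genes wholly overlapped by others has 0 counts and could not qualify.

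There were 13 members that formed 6 runs of direct neighbours, where genes wholly overlapped by others were passed over. The same count was not made for other genes, so the runs are only a description. The longest run, on chromosome 2L of dmel r6.15, holds CG31872 (10639931 to 10643539), CG18284 (10643971 to 10645891) and CG17097 (10646415 to 10650152), all on the plus strand and all of the lipase family, which cleaves fatty acids from esters. The pairs were CG17376 with CG17377, CG42659 with CG31740 and CG42688 with CG46059 on 2L, CG12861 with CG12860 on 2R and CG42481 with CG43147 on 3L. The genes of each run lay on the same strand. Neighbours in a run did not always share their pattern, since CG42659 had 6.77 and 2.85 CPM in larvae and its neighbour CG31740 had 68.2 and 31.4 CPM there.

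To compare levels between genes, CPM was divided by the length of the gene span in kilobases, since the table gives the whole span as the length of a gene. The 10 members highest per kilobase in testes were mostly very short. CG42481 (FBgn0259971, 3L, 13298797 to 13299023, a single exon coding for 49 amino acids) stood first with 16318 CPM per kb on the mean of the 2 testis libraries. These libraries differed widely for CG42481, with 5579 and 1829 CPM, so that its rank depends on the replicate. CG42481 was followed by CG18628 (FBgn0036091, 3L, 10639740 to 10640136, 63 amino acids) with 9760.5 CPM per kb. CG43147 (3L, 13299841 to 13300152, 44 amino acids) came next with 5841 CPM per kb. CG9029 (2L, 5886002 to 5886609) had 4162 CPM per kb, CG9016 (2L, 5922876 to 5923653) 4143 CPM per kb and CG3124 (2R, 23282743 to 23284113) 3250.3 CPM per kb. CG46059 had 3212 CPM per kb, and the adjacent pair CG12860 and CG12861 had 3203 and 3166 CPM per kb. The last of the 10 was CG31226 (3R, 18851305 to 18851798) with 3079 CPM per kb. Per kb of exons the order differed in part, since CG42688 (3284 CPM) stood above CG12860 (3203 CPM) and CG12861 (3166 CPM). By mean CPM alone the order was another, with CG17097 (9273 CPM) first and CG4836 (7820.0 CPM) next (CG4836 was named after its values were seen). In replicate 1, however, CG4836 (8174 CPM) stood above CG17097 (5916 CPM). In replicate 2 CG17097 (12631 CPM) stood above CG4836 (7466 CPM).

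Between testes and male bodies the members kept nearly the same order. Pearson's r between the mean CPM of the 2 tissues, taken on the log2 scale, was 0.990 over the 101 genes. Spearman's rho was 0.982, and the genes are not independent replicates. The level in testes was 2.59 times that in male bodies at the median, with a range from 1.95 times (CG18284) to 3.53 times (CG42688) and 80% of the members between 2.36 and 3.02 times. The ratio was 2.25 in the libraries of replicate 1 and 3.07 in those of replicate 2. Replicate numbers are those of the count table, and since an ovary and a male head library have more counts than mapped reads in the sources, the numbers may differ between sources. The lowest ratios after that of CG18284 belonged to CG8565 (2.21 times), CG6652 (2.25 times) and CG12983 (2.26 times), and the highest after that of CG42688 to CG42481 (3.28 times), CG46059 (3.22 times) and CG42659 (3.21 times). CG42688, CG42481, CG46059 and CG42659 encode proteins of 47 to 50 amino acids. Testis values chose the members, so this ratio is given without a test.

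Body values did not enter the rule, but the bodies held RNA of the gonads. The ovary genes oskar (osk, a determinant of the germ plasm) and Vm26Aa (a vitelline membrane protein) averaged 191 and 8288 CPM in female bodies, against 313 and 9109 CPM in ovaries, and the sperm gene dj averaged 574 CPM in male bodies, against 1615 CPM in testes. The comparison of bodies therefore largely repeats that of testes with ovaries, by which the members were chosen, and its direction and calls are given as a description that supports nothing further. Each of the 101 genes was higher in male bodies than in female bodies, in both libraries of the one over both of the other. CG17097 had 3272 and 4085 CPM in male bodies, against 31.2 and 4.05 CPM in female bodies. CG3124 had 1736 and 1359 CPM in male bodies, against 16.5 and 1.95 CPM in female bodies, and CG42481 had 1687 and 570.0 CPM in male bodies, against 18.5 and 0.567 CPM in female bodies. In each of the 3 genes the female body libraries lay far apart from each other and far below the male ones. In edgeR's quasi-likelihood test with Benjamini-Hochberg adjustment over 12597 genes, 101 of the 101 were called higher in male bodies (called means an adjusted p below 0.05 with a change of 1 or more on the log2 scale), where 27.7% of all genes tested were. The log2 fold change had a median of 6.98 (3.72 to 7.98, median SE 1.54), against 0.18 over all genes tested. All 101 members passed the filter on low counts, also in a fit of the 4 body libraries alone. Of the 101, 86 had at least 10 counts in each of the 4 body libraries, and all 86 were called higher.

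**Figure D2:**
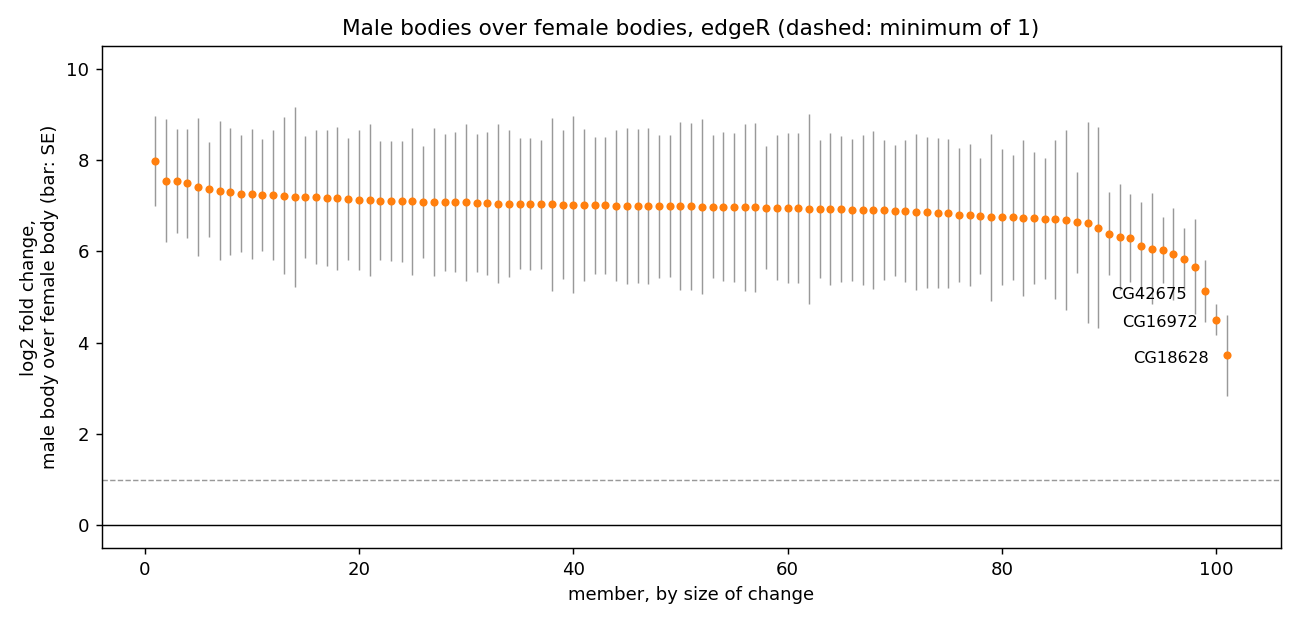
Log2 fold change of male bodies over female bodies for each of the 101 genes, from the largest at the left, with bars of 1 SE from the edgeR fit. The dashed line is the smallest change that could be called. The values form a plateau near 7 that ends in CG42675 (5.13), CG16972 (4.51) and CG18628 (3.72).

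The largest log2 fold changes between bodies were those of CG15635 (7.98 ± 0.98 SE), CG9016 (7.55), CG31872 (7.54) and CG17097 (7.49). CG15635 had 145 and 354 CPM in male bodies, against 1.29 and 0.430 CPM in female bodies. The smallest belonged to CG18628 (3.72 ± 0.89 SE), CG16972 (4.51 ± 0.33 SE), CG42675 (5.13) and CG14183 (5.66). CG18628 had 1435 and 1053 CPM in male bodies, against 101 and 60.1 CPM in female bodies. Among the 101 members it had the highest level in female bodies (80.4 CPM on average), while its ovary level was 43.1 and 9.60 CPM and its female head level 7.24 and 2.26 CPM. CG16972 had 876 and 640.1 CPM in male bodies, against 22.3 and 34.8 CPM in female bodies, so that its replicates lay close together in both sexes. CG42675 had 301 and 237 CPM in male bodies, against 8.02 and 5.16 CPM in female bodies.

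The size of the difference depended on the replicate. As a ratio of CPM with 0.5 added, male bodies stood over female bodies by a median of 90.3 times in replicate 1 and 318 times in replicate 2, and the smallest ratio was that of CG18628 in both (14.2 and 17.4 times). Leaving out female body replicate 1 gave a median log2 fold change of 9.53, and leaving out female body replicate 2 gave 6.85, where the median of all genes was 0.91. With DESeq2's size factors the median of all genes was 0.51 higher and 70.6% of all calls were upward, against 53.2% with TMM, and the median of the members was 7.52.

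The low counts of the members in ovaries followed their testis level closely. In replicate 1 the ovary CPM was 0.891% of the testis CPM at the median, and 80% of the members lay between 0.816% and 1.01%. In replicate 2 the median was 0.168%, with 80% of the members between 0.127% and 0.236%. Taken on the log2 scale, Pearson's r between testis and ovary CPM over the 101 genes was 0.950. It was lower for female bodies (0.849), female heads (0.724) and male heads (0.709). CG3124 had 4577 and 4336 CPM in testes, against 37.1 and 8.17 CPM in ovaries, and CG4836 had 8174 and 7466 CPM in testes, against 70.2 and 12.9 CPM in ovaries. In both genes replicate 1 was the higher ovary library by more than the testis libraries differed.

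**Figure D3:**
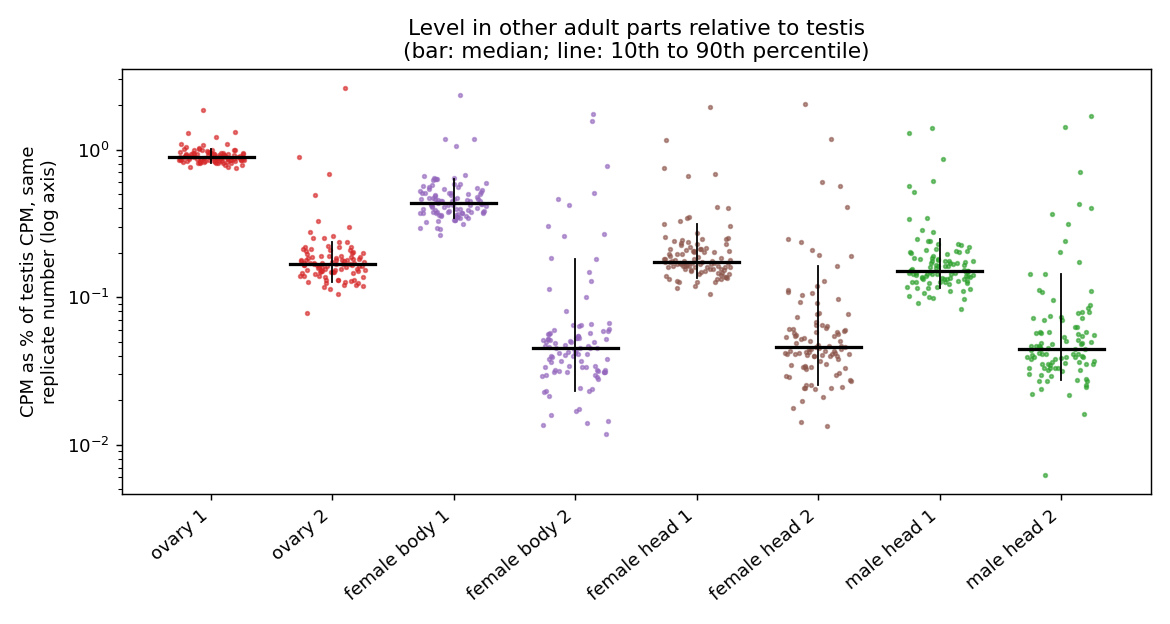
CPM of each of the 101 genes in ovaries, female bodies, female heads and male heads as a percentage of its CPM in the testis library of the same replicate number, on a log axis, with the median as a bar and the 10th to 90th percentile as a line. Ovary replicate 1 forms a narrow band at 0.891% and ovary replicate 2 one at 0.168%, and in each of the 4 tissues replicate 1 lies above replicate 2.

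In the other tissues the spread was wider. The median share of the testis level was 0.433% and 0.0451% in female bodies, 0.172% and 0.0459% in female heads and 0.151% and 0.0446% in male heads, for replicates 1 and 2. In replicate 2, 80% of the members lay between 0.0233% and 0.182% in female bodies and between 0.0272% and 0.144% in male heads. Lists of named genes of the male tract had ovary medians close to those of the members. The 26 sperm genes at 100 CPM or more in testes stood at a median of 0.886% and 0.158% of their testis level in ovaries and the 16 accessory gland genes at 0.858% and 0.179%. These medians were thus lower in replicate 2 for the members and for both lists, although single genes such as f-cup (34.0 and 36.1 CPM in ovaries) were not. The part of the replicate number in the low ovary, head and female body values was not tested.

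Few members departed from these bands. CG16972 (FBgn0032481, 2L, 13197102 to 13203295, 1710 amino acids) had 1899 and 2223 CPM in testes, against 35.4 and 58.1 CPM in ovaries, 22.1 and 26.1 CPM in female heads and 26.5 and 31.7 CPM in male heads. Its level outside the testis was higher in replicate 2 than in replicate 1 in all 4 of those tissues counting female bodies, the opposite of the other bands. CG42675 (FBgn0261561, 3R, 5813609 to 5818820, 427 amino acids) had 681 and 663 CPM in testes, against 13.2 and 13.4 CPM in female heads and 8.82 and 11.2 CPM in male heads. Both genes also had the highest embryo levels of the 101, with 18.4 and 17.5 CPM for CG16972 and 20.1 and 16.4 CPM for CG42675. CG16972 and CG42675 each overlap another gene in the annotation, and CG18628 overlaps none.

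Along development, the members were near the floor in embryos, intermediate in larvae and highest in whole adults. The 6 stage libraries were fitted apart from the adult parts, because read length and strand protocol differ. In embryos 39 members had at least 10 counts in both libraries, and 21 had 0 in both. Only 14 members reached a mean of 1 CPM there, led by CG42675 (18.2 CPM), CG16972 (18.0 CPM), CG15530 (5.40 CPM) and CG14183 (3.02 CPM). In larvae 91 members had at least 10 counts in both libraries and 9 had 0 in both, and all 101 had at least 10 counts in both libraries of whole adults.

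Larvae held RNA of sperm genes, since dj averaged 32.9 CPM there, against 0 CPM in embryos. The members were chosen on their testis level, so the comparison of larvae with embryos partly repeats that choice. Its direction and calls are given as a description. In larvae against embryos, 91 of the 101 were called higher (edgeR, Benjamini-Hochberg over 12335 genes), where 31.7% of all genes tested were. Another 1 was called lower, where 19.3% were. The 91 all had both larva libraries above both embryo libraries. In a fit of larvae and embryos alone, 92 members passed the filter on low counts. The others passed it here through their whole adult reads. The fitted log2 fold change had a median of 7.96 over the members and 0.31 over all genes. The 19 members at 0 in embryos but not in larvae were then set to the bound that 3 counts over the group allow, and 3 members at 0 in larvae likewise. Another 6, at 0 in larvae and under the larva floor of 0.0309 CPM in embryos, were left out. The median was then 8.16 over 95 members. CG3124 had 103 and 63.1 CPM in larvae, against 0 counts in both embryo libraries, and was thus at least 4835-fold higher in larvae. CG12860 had 68.5 and 48.9 CPM in larvae, against 0 in embryos, at least 3424-fold higher. CG4691 and CG14540, also at 0 in embryos, were at least 2454-fold and 2220-fold higher. At the other end, CG42675 had 47.0 and 47.2 CPM in larvae, against 20.1 and 16.4 CPM in embryos, a log2 fold change of 1.55 ± 0.18 SE (edgeR adjusted p = 0.00043), and CG16972 had 65.1 and 61.4 CPM in larvae, against 18.4 and 17.5 CPM in embryos, a change of 1.995 ± 0.19 SE.

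Whole adults also held RNA of the testis, since the sperm gene dj averaged 170 CPM there, against 1615 CPM in testes. The members were chosen on their testis level, so the 2 comparisons with whole adults partly repeat that choice. Their direction and calls are given as a description. In whole adults against larvae, 94 of the 101 were called higher (edgeR, Benjamini-Hochberg over 12335 genes), where 23.1% of all genes tested were. In 100 of the 101 both adult libraries lay above both larva libraries, and CG15109 was the exception. The log2 fold change had a median of 1.92 over the members, with or without the 9 members at 0 in larvae set at their bounds, and -0.02 over all genes. Leaving out whole adult replicate 2 left 76 called. With DESeq2's size factors 66.7% of all calls were upward, against 56.5% with TMM, the median of all genes was 0.20 higher, and 96 members were called. CG4836, the most abundant member in both stages, had 332 and 226 CPM in larvae and 1529.7 and 2006 CPM in whole adults. The 7 members that were not called all had a positive change, and CG15109 had the smallest, with 85.7 and 109 CPM in whole adults, against 86.9 and 54.8 CPM in larvae (log2 fold change 0.24 ± 0.26 SE, edgeR adjusted p = 0.445). CG15530 (0.73), CG15306 (0.77), CG6304 (0.88) and CG8565 (0.88) came next. CG15530 had 59.2 and 84.4 CPM in whole adults, against 26.6 and 47.5 CPM in larvae.

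In whole adults against embryos, 101 of the 101 were called higher (edgeR, Benjamini-Hochberg over 12335 genes), where 29.7% of all genes tested were, and the median log2 fold change was 10.4 as fitted and 10.3 with the 21 members at 0 in embryos set at their bounds. The 2 comparisons with embryos share the embryo libraries, and those with larvae share the larva libraries. The smallest change was again that of CG42675 (2.79 ± 0.19 SE), which had 123 and 136 CPM in whole adults.

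**Figure D4:**
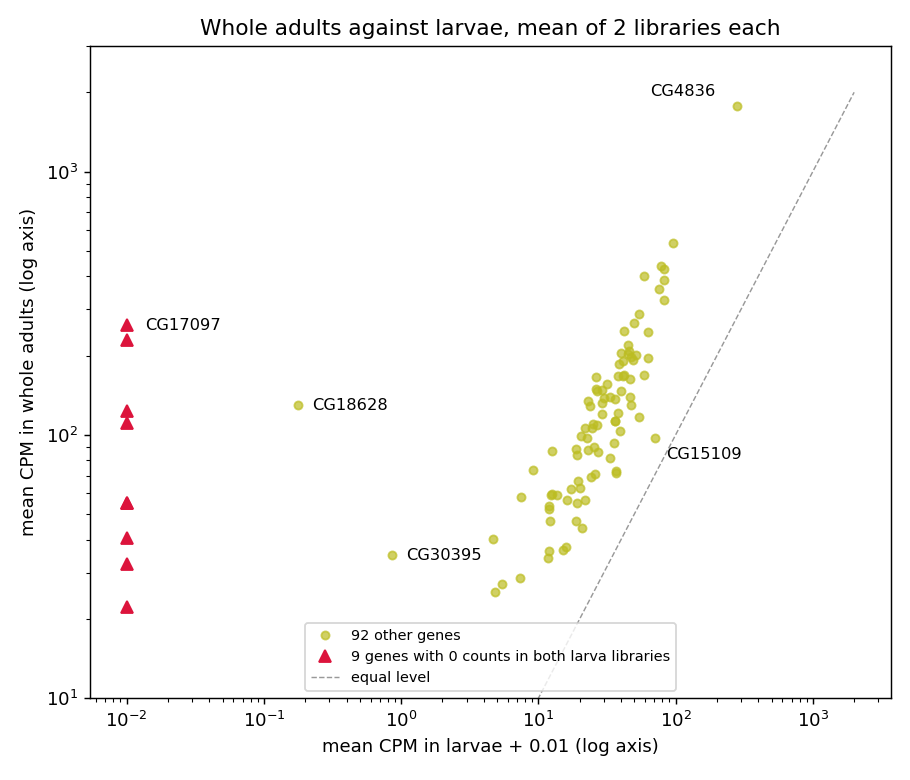
Mean CPM in whole adults against mean CPM plus 0.01 in larvae for each of the 101 genes, both on log axes, with the dashed line at equal levels. Red triangles mark the 9 genes with 0 counts in both larva libraries (at 55 CPM in adults 2 of them overlap), and CG15109 lies closest to the line.

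The 9 members with 0 counts in both larva libraries stood apart from the rest, which in larvae lay between 0.681% (CG42659) and 9.40% (CG15109) of their testis level, apart from CG30395 (0.0664%) and CG18628 (0.00430%) far below. The 9 were the 3 neighbouring lipase genes CG17097, CG31872 and CG18284, the neighbours CG42481 and CG43147, and CG9029, CG15635, CG42852 and CG43392. All 9 were present in whole adults. CG17097 had 189 and 334 CPM in whole adults, at least 8458-fold over the larva floor of 0.0309 CPM, and CG31872 had 177 and 281 CPM, at least 7400-fold. CG9029 had 124 and 122 CPM (at least 3977-fold), CG43147 had 107 and 115 CPM (at least 3592-fold) and CG43392, the lowest and named after its values were seen, had 21.8 and 22.8 CPM (at least 721-fold). CG9029 was the member called lower in larvae than in embryos, with 0 counts in larvae, against 9 and 14 counts in embryos. CG18628 had 116 and 145 CPM in whole adults, against 6 and 10 counts in larvae, and CG30395, named after its values were seen, had 24.2 and 46.0 CPM in whole adults, against 1.05 and 0.643 CPM in larvae.

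Several values of the 9 differed from those of the other 92, and they are given as a description because the 9 were picked for their larval counts. Their whole adult level was a median of 4.86% of their testis level (1.48% to 6.10%), against 10.6% for the other 92 (2.75% for CG30395 to 38.1% for CG17377). Whole adult and testis libraries differ in read length and strand protocol. The 9 had a median span of 608 bases, against 1797 bases for the other 92, and the part of gene length in this difference was not tested. The proteins of the 9 had a median length of 122 amino acids (32 to 1136), against 406 amino acids (47 to 1737). The marker lists also differed from each other in larvae. Of the 17 measured genes of the accessory gland, ejaculatory duct and bulb, 15 had under 3 counts in both larva libraries (all but EbpIII and Est-6), and their list summed to 65.3 and 63.0 CPM in larvae. All 31 measured sperm genes reached 3 counts in a larva library or both, and they summed to 1853 and 1168 CPM in larvae. In whole adults the 26 sperm genes at 100 CPM or more in testes stood at a median of 14.9% of their testis level (6.23% to 28.2%). The 16 accessory gland genes at 100 CPM or more in testes stood at 6.30% (0.887% to 318%), so that the 2 ranges overlapped. Which tissue of the dissected male tract the 9 members came from was not tested.

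The most extreme differences between replicates also lay among the 9, though not in each of them. Over all 101 genes, testis replicate 2 stood at 0.836 times replicate 1 at the median, and the ratio ran from 0.298 (CG42852) to 4.07 (CG15635) among the 9 and from 0.397 (CG31468) to 1.68 (CG30395) among the other 92. CG15635 had 309 and 1255 CPM in testes, and CG42852 had 897 and 268 CPM there. The male body libraries of the same numbers differed alike, with a replicate ratio of 2.45 for CG15635 and 0.226 for CG42852. On the log2 scale Pearson's r between the 2 ratios was 0.843 and Spearman's rho 0.626 over the 101 genes. Among the 3 lipase neighbours, replicate 2 was the higher testis library in each, with 5916 and 12631 CPM for CG17097, 3966 and 9587 CPM for CG31872 and 870.2 and 1255 CPM for CG18284. The adjacent CG42481 and CG43147 were lower in replicate 2, with 5579 and 1829 CPM for CG42481 and 2075 and 1569.9 CPM for CG43147. The accessory gland genes had ratios from 0.343 to 1.86 and the sperm genes from 0.252 to 1.09. What the libraries of one number share is not given in the sources used here.

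**Figure D5:**
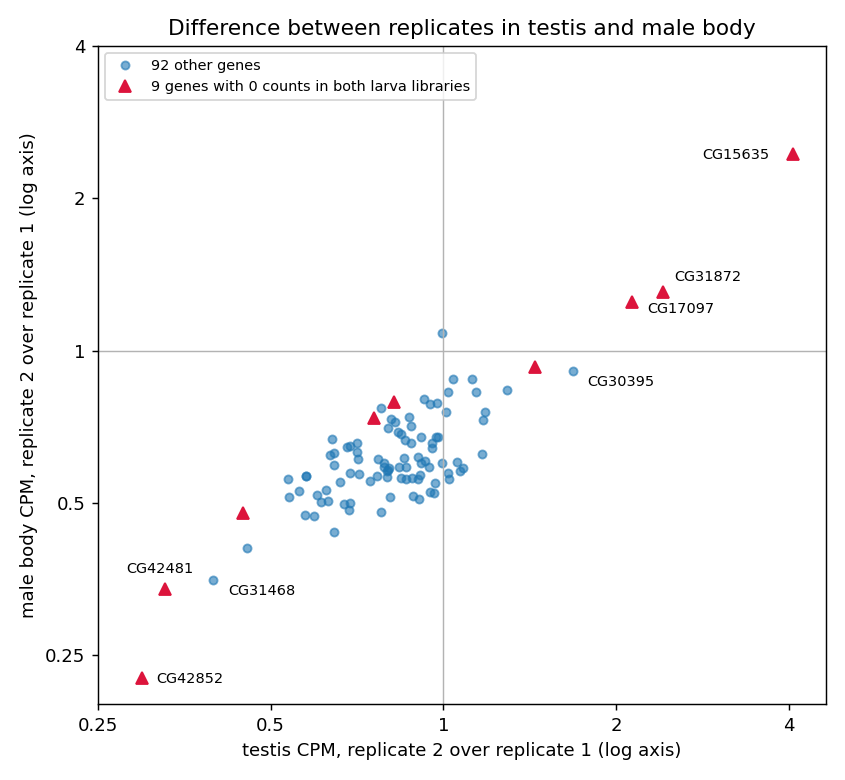
Ratio of CPM in replicate 2 over replicate 1 in testes (horizontal) and in male bodies (vertical) for each of the 101 genes, both on log axes, with grey lines at a ratio of 1. Red triangles mark the 9 genes with 0 counts in both larva libraries, which hold the most extreme ratios at both ends, from CG42852 at the lower left to CG15635 at the upper right.

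Other genes of the male tract were counted in the same comparisons, of which those between stages share libraries. Of all genes tested, 27.7% were called higher in male bodies than in female bodies and 31.7% in larvae than in embryos. For whole adults the share was 23.1% over larvae and 29.7% over embryos. Of the 3 measured early germline genes, bgcn was called higher in male bodies than in female bodies (log2 fold change 4.90), and bam (-3.28) and vas (-5.41) were called lower. Of the 12 measured genes of spermatocyte transcription (tMAC, testis TAFs and kmg), 8 were called higher in male bodies than in female bodies (edgeR). In larvae against embryos 12 were called higher, and in whole adults against embryos 10. In whole adults against larvae 0 of these 12 were called higher and 0 lower. Their median log2 change there was -0.60, where that of the 101 members was 1.92. The cannonball gene can, a testis TAF, had 37.1 CPM in testes, 3.39 CPM in larvae and 2.49 CPM in whole adults. Of 30 sperm genes that passed the filter, 30 were called higher in male bodies than in female bodies, 29 higher in larvae than in embryos, 27 higher in whole adults than in larvae and 30 higher in whole adults than in embryos, and the median log2 change of whole adults over larvae was 1.76. Of the 17 accessory gland genes, 16 were called higher in male bodies than in female bodies. All 17 were called higher in whole adults than in larvae and than in embryos. In larvae against embryos 3 of the 17 were called lower, where 19.3% of all genes tested were.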

How the data were processed

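Per the submitters' processing notes, adapters were removed with cutadapt 1.15 and TopHat2 2.1.1 aligned the reads to dmel r6.15. The authors deposited 1 table of raw counts per gene for the 18 libraries, without normalization. The counter and its strand setting are not given in the sources used here. In the table the length of a gene is its whole span, introns included. Symbols came from a gene name table (17741 of the 17825 identifiers), and exons, biotypes and protein lengths from an Ensembl annotation in which all 101 members had the same position and strand. Of the members, 18 overlap another gene, so that a part of their reads may not have been counted. All 3487 genes of the table that others wholly overlap, on either strand, had 0 counts in all libraries.

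CPM were taken on library totals. Tests used edgeR 4.0.16 in R 4.3.3 (glmQLFit, glmQLFTest, TMM, filterByExpr with a minimum count of 10, no covariate), with the 12 libraries of adult parts in 1 fit and the 6 stage libraries in another, and an SE of a log2 fold change was its size over the square root of F. Bounds used a floor of 3 counts over the 2 libraries of a group. The procedure was tested on simulated data.

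Members, marker lists and tests were chosen with earlier results of these data known. The members named are the 10 highest per kb in testes, the 4 largest and 4 smallest changes of 3 of the tested comparisons and of the ratio of male body to testis, those nearest the 2 limits, and the members of neighbour runs. CG1979, CG4836, CG7069, CG30395, CG31468 and CG43392 were named after their values were seen. Early germline (3 measured), testis somatic (5), neuron (6), ovary (4), female fat body (3) and male X (2) lists were also summed, and in testes they came to 82.5 and 126, 169.99 and 209, 104 and 91.3, 23.4 and 11.4, 51.5 and 21.8, and 94.7 and 152 CPM. Alternatives were DESeq2 1.42.0 (size factors, Wald test), upper-quartile factors, 2 other filters, a block for the replicate number, a fit restricted to the compared groups, no minimum fold, each library left out in turn, members without overlap and other limits of the rule. The ratios by replicate number were added after seeing the data. PSI values and junction reads were not analysed here.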

Additional observations from a re-analysis of the deposited data

How the results depend on the processing

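The body comparison kept 101 members called higher under each other scaling, test and fit tried, apart from 86 of 86 under the stricter filter, 83 of 83 without overlap and 98 to 101 when a body library was left out. At least 10 counts in every library compared left 39 members to test, all called higher, in larvae over embryos and likewise 39 in whole adults over embryos, since the others lacked embryo counts. The single call lower in larvae than in embryos (CG9029) was lost there and in a fit of only these groups (0 each, where CG9029 was not tested), and ranged from 1 to 2 calls with a library left out, with CG42481 added without embryo replicate 1. In whole adults over larvae 94 calls became 76 to 98 with a library left out. With a library left out, CG18628 ranged from -1.14 to 0.99 in larvae over embryos (0.99 without embryo replicate 2), and CG15109 from -0.041 (without larva replicate 2) to 0.60 in whole adults over larvae, neither called. Without male body replicate 1 or female body replicate 2, CG42481 and CG42852 were no longer called between bodies (edgeR adjusted p of CG42481 0.0548 and 0.0686, of CG42852 0.0685 and 0.0748), nor was CG42659 without female body replicate 2.

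With the replicate number as a block, 101 members were called higher in male bodies (median log2 fold change 7.69), 91 in larvae over embryos, 93 in whole adults over larvae and 101 in whole adults over embryos. Libraries of one number deviated together in the adult parts (correlations of 0.279 to 0.672 over 15 pairs of groups) and not in the stages (-0.047 to 0.123 over 3 pairs), and with 2 libraries a group the numbers were not taken as pairs.

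The rule kept 232 genes at 250 CPM, 46 at 1000 CPM, 66 at 500 CPM per kb (55 of them members), 84 with TMM-scaled CPM, and 116 and 93 on replicate 1 or 2 alone. Members without overlap held 12.9% of testis counts, against 14.9% for all. The testis to male body ratio ranged from 2.25 to 3.07 between replicates. In embryos, the deepest libraries, 21 members had 0 counts, and their levels are known only as under the floor.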
